A study of Rattus norvegicus with 18 samples.

Results

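The 5 genes studied here were grouped as genes of proximal gut identity and were followed on 18 arrays of rat jejunal mucosa, as a readout of where along the gut each sample carried its regional signature. They are the transcription factor genes Pdx1, Onecut2, Gata4 and Osr2 and the folate transporter gene Slc46a1. Members were the probe sets whose platform annotation gives exactly 1 gene symbol equal to one of these names. There were 9 such probe sets for the 5 genes, out of 31042 probe sets that are no controls and 14217 named genes. Onecut2 had 4 probe sets, Gata4 had 2, and Pdx1, Slc46a1 and Osr2 had 1 each.

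The samples were mucosal scrapings from male Sprague Dawley rats aged 6 to 8 weeks, 3 arrays in each of 6 groups. One group received the vehicle, 0.5% methyl cellulose, by daily oral gavage. The other groups received an inhibitor of the cell cycle kinases CDK4 and CDK6: palbociclib (30 or 100 mg/kg/day), abemaciclib (36 or 120) or ribociclib (300). Palbociclib was given in the same 0.5% methylcellulose. Abemaciclib and ribociclib were given in another mixture, a citrate buffer of 10 mM and pH 3 that held 0.5% hydroxypropyl methylcellulose and 0.25% tween 80, for which there is no control group, so compound and vehicle cannot be told apart for those 3 groups. The study dosed for 4 or 15 days, and the labels do not give the duration, the animal or the position along the jejunum for any array. The array called abemaciclib 120 B here carries 120 mg/kg/day in its treatment label and 100 in its title. p-values therefore measure only the spread between these arrays, which may be technical.

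Signals are log2 values from RMA, in which 1 unit is a doubling, and a signal of one gene cannot be set against that of another. Array medians lay between 5.402 and 5.51, pairs of arrays correlated at 0.918 to 0.993, and no pair was identical. Signals of intestinal epithelium were high: 12 markers of mature enterocytes had mean signals of 11.88 to 14.19 and 8 general epithelial markers 8.31 to 13.74. These lists do not tell the jejunum from the duodenum or ileum. For orientation, 21 genes of organs not sampled, such as testis and pituitary, had means of 3.74 to 6.15, and 5.49 was the 90th percentile of their values. Signals below 5.49 are taken here as near background, so a difference from a group at that level is a lower bound and differences or spread among such arrays carry no order. Of 20 genes of pancreatic acinar cells, 17 stayed below 7 on every array, the defining Cpa1 and Prss1 between 3.76 and 4.22, and all 9 genes of stomach and duodenal glands did so too. The acinar genes that rose above 7 were Cela1, highest on abemaciclib 120 C (10.30), and Ctrc and Pnliprp2, highest on abemaciclib 36 A (7.66 and 8.57). Palbociclib 100 B and abemaciclib 36 A stood apart from the other arrays in several of the genes below, and the members' differences and correlations are also given without them where they enter.

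The small intestine keeps a fixed regional order along its length, and its epithelium holds that order through transcription factors. Pdx1, a homeodomain factor required for the pancreas, is active in the duodenum, and Onecut2, of the cut-homeodomain family, also marks the upper intestine. Gata4, a zinc-finger factor, is present in duodenal and jejunal epithelium but not in the terminal ileum, and it is known for holding ileal genes of bile acid uptake silent in the jejunum. Slc46a1 encodes the proton-coupled folate transporter, which takes up dietary folate at the acidic surface of the upper intestine. Osr2 encodes a zinc-finger factor best known from palate, tooth and limb development.

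The promoter table held entries for 2 of the 5 members, Pdx1 and Slc46a1. Their 250 bases upstream of the transcription start are shown because Gata4, Onecut2 and their partner Cdx2 in the gut belong to DNA-binding families with short known motifs, which were searched for here. The sequences are from RefSeq on GRCr8, 5′ to 3′ on the gene's strand, with capitals reserved for motif matches. The Pdx1 stretch is chr12:12799157-12799406 on the minus strand, and the Slc46a1 stretch is chr10:63859301-63859550 on the plus strand.
Pdx1: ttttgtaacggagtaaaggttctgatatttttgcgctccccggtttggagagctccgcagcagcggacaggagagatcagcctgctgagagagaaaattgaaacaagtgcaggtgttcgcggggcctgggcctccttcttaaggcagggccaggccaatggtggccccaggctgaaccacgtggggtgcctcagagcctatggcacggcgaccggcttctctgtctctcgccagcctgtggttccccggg
Slc46a1: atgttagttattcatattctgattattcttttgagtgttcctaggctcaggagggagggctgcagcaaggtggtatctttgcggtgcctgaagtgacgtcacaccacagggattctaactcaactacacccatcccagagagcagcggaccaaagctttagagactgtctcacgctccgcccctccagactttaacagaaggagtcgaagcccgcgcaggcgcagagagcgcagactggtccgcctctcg
Neither holds a capital, because neither had a match on either strand to the GATA motifs AGATAA or TGATAA, the ONECUT motifs ATCAAT or ATCGAT, or the CDX motifs TTTATG or TTTATT. Among 33469 promoters of the same length, 16.87% held a GATA motif, 7.78% an ONECUT motif and 27.14% a CDX motif. These shares show that a window without a match is common, and they say nothing about the factors themselves. The Pdx1 stretch is 59.6% G and C and the Slc46a1 stretch 53.6%.

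Pdx1 was near the bottom of its range on 16 of the arrays and high on 2. Its log2 signal was 4.26, 3.74 and 4.02 on vehicle A, B and C. With palbociclib it was 4.02, 3.86 and 4.15 at 30 mg/kg/day and 3.96, 6.73 and 3.84 at 100. With abemaciclib it was 6.21, 3.83 and 4.12 at 36 mg/kg/day and 3.93, 3.87 and 3.86 at 120, and with ribociclib 3.84, 4.61 and 4.27. The duodenal and pancreatic factor was thus high on palbociclib 100 B and abemaciclib 36 A, while the remaining arrays of those same groups lay within the vehicle range or near it. The other 16 arrays all lay below 5.49, so how far these 2 exceeded them is known only as a lower bound. Of the variation of Pdx1 over all arrays, 79.0% lay within groups.

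Onecut2 was high on 5 arrays, 1 of them a vehicle array, and near background on the other 13. Its signal was 8.37, 4.00 and 4.66 on vehicle A, B and C. With palbociclib it was 6.99, 4.53 and 4.58 at 30 mg/kg/day and 7.02, 10.17 and 4.53 at 100. With abemaciclib it was 9.65, 4.00 and 4.46 at 36 mg/kg/day and 3.76, 4.22 and 3.84 at 120, and with ribociclib 3.98, 4.08 and 3.90. Palbociclib 100 B and abemaciclib 36 A were again the highest, followed by vehicle A, palbociclib 100 A and palbociclib 30 A, and the other 13 arrays lay at or below 4.66. All 6 arrays of abemaciclib at 120 mg/kg/day and of ribociclib were among those low ones. The 5 high arrays were thus spread over 4 groups, and in each of those groups at least 1 other array lay below 5.49. Its within-group SD of 2.06 compares with a median of 0.24 over all genes.

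The 4 Onecut2 probe sets gave the same picture. Their 6 pairwise correlations over the 18 arrays were 0.989 to 0.994, so the ups and downs of Onecut2 do not rest on 1 set of probes. The lowest values of the probe sets were 3.70 to 3.94 and the highest 9.36 to 10.17, each on palbociclib 100 B. The Gata4 probe sets were less alike (0.358): the dimmer one stayed between 4.73 and 5.87 on every array, while the brighter one, which represents Gata4 here, ranged from 6.89 to 9.85.

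**Figure D1:**
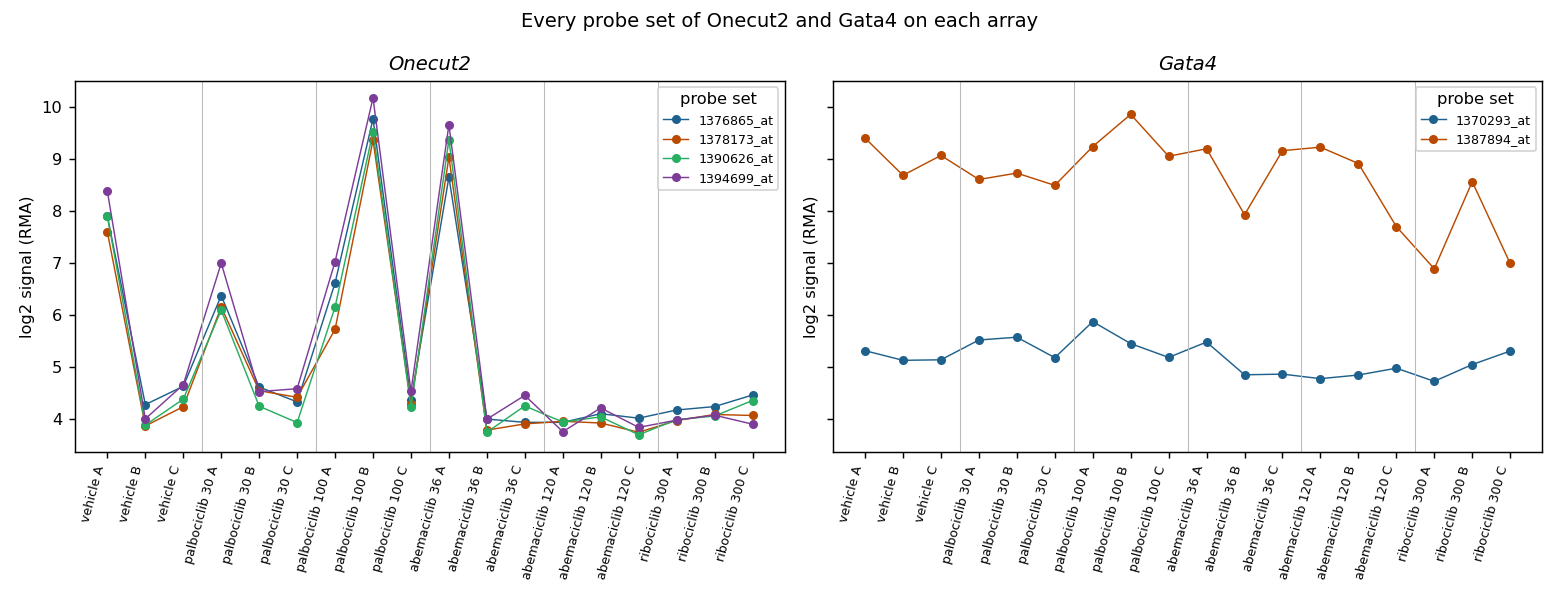
Log2 RMA signal of each probe set of Onecut2 (left, 4 probe sets) and Gata4 (right, 2 probe sets) on each of the 18 arrays, with vertical lines between groups. The Onecut2 lines run together and peak on palbociclib 100 B and abemaciclib 36 A, while the lower Gata4 line stays between 4.73 and 5.87.

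Gata4, the factor of duodenal and jejunal epithelium, was clearly measured on every array and was lowest on 2 ribociclib arrays. Its signal was 9.40, 8.68 and 9.06 on vehicle A, B and C. With palbociclib it was 8.60, 8.72 and 8.49 at 30 mg/kg/day and 9.23, 9.85 and 9.05 at 100. With abemaciclib it was 9.19, 7.92 and 9.15 at 36 mg/kg/day and 9.22, 8.91 and 7.70 at 120, and with ribociclib 6.89, 8.56 and 6.99. The highest array was palbociclib 100 B, as for Pdx1 and Onecut2. Ribociclib A and C were the lowest, and abemaciclib 120 C and abemaciclib 36 B came next, whereas the remaining 14 arrays lay at 8.49 or above.

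Osr2 ran against the other factors on the arrays that stood apart. Its signal was 7.19, 7.16 and 7.34 on vehicle A, B and C, the 3 highest of all arrays. With palbociclib it was 6.74, 6.42 and 6.67 at 30 mg/kg/day and 6.78, 5.30 and 6.81 at 100. With abemaciclib it was 3.37, 6.26 and 5.70 at 36 mg/kg/day and 6.60, 6.72 and 5.43 at 120, and with ribociclib 6.63, 5.76 and 6.01. Abemaciclib 36 A and palbociclib 100 B, the highest arrays for Pdx1 and Onecut2, were the lowest for Osr2. Both lay below 5.49, as did abemaciclib 120 C. On these arrays Osr2 did not run with Pdx1 and Onecut2, whereas over the other 16 arrays its r was 0.438 with Onecut2, 0.421 with Gata4 and 0.433 with Slc46a1. The value with Onecut2 rests on the few of the 16 arrays where Onecut2 was above 5.49.

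Slc46a1, the folate transporter, kept a high and even signal in vehicle and palbociclib samples and was lower on most arrays of the other compounds. Its signal was 11.86, 11.56 and 11.79 on vehicle A, B and C. With palbociclib it was 12.12, 11.81 and 11.83 at 30 mg/kg/day and 11.94, 11.74 and 12.01 at 100. With abemaciclib it was 10.47, 11.67 and 10.43 at 36 mg/kg/day and 9.60, 10.89 and 8.25 at 120, and with ribociclib 10.29, 12.30 and 12.02. All 9 vehicle and palbociclib arrays lay between 11.56 and 12.12. The 3 arrays of abemaciclib at 120 mg/kg/day were below every vehicle array, as were abemaciclib 36 A and C and ribociclib A. Palbociclib 100 B, high in Pdx1 and Onecut2, had an ordinary Slc46a1 signal.

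**Figure D2:**
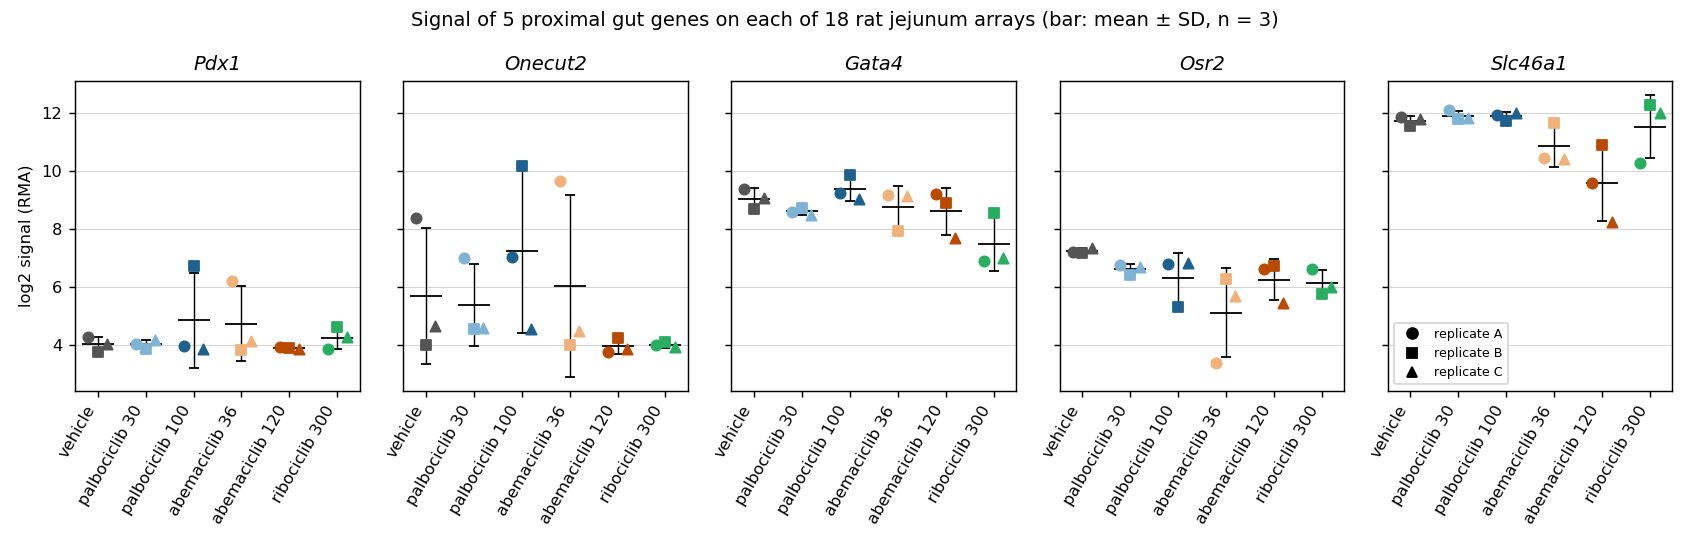
Log2 RMA signal of Pdx1, Onecut2, Gata4, Osr2 and Slc46a1 on each of the 18 arrays (points, with marker shape for the replicate letter) in the 6 groups, with the group mean and SD (n = 3) as bars. Palbociclib 100 B and abemaciclib 36 A stand out high for Pdx1 and Onecut2 and low for Osr2, and the arrays of abemaciclib at 120 mg/kg/day are spread from 8.25 to 10.89 for Slc46a1.

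Read as a marker of position, the 5 genes did not order the arrays along 1 line. Over 18 arrays Pdx1 and Onecut2 varied together (Pearson r 0.792, Spearman rho 0.503), but without palbociclib 100 B and abemaciclib 36 A the r was 0.206 over 16 arrays. Pdx1 and Osr2 ran in opposite directions (r -0.727, and -0.292 over the 16 arrays), and Onecut2 and Osr2 changed from -0.428 to 0.438 once those arrays were left out. Gata4 and Osr2 went from -0.038 to 0.421, and Pdx1 and Gata4 from 0.406 to 0.038. Onecut2 and Gata4 had an r of 0.572, and of 0.454 over the 16 arrays. Slc46a1 had an r of 0.345 with Osr2, 0.203 with Onecut2, 0.198 with Gata4 and 0.065 with Pdx1. Over the 16 arrays these were 0.433, 0.388, 0.213 and 0.366. Pdx1 lay below 5.49, near background, on all of the 16 arrays, so its r values over them cannot tell whether it ran with another gene. Among the 16, Onecut2 was above that level only on vehicle A, palbociclib 30 A and palbociclib 100 A. The Onecut2 r values over the 16 arrays rest on those arrays against the rest. These values describe arrays that share platform, normalization and, in threes, treatment.

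The mean of the 5 genes, each taken as the log2 distance from its own median over the arrays, was highest on palbociclib 100 B at 1.62 and vehicle A at 1.08. It was lowest on abemaciclib 120 C at -1.32 and ribociclib 300 A at -0.81. Abemaciclib 36 A scored 0.64, and 1.61 once Osr2 was left out, because its very low Osr2 pulled against its high Onecut2. Without Onecut2 the same array scored -0.49, palbociclib 100 B 0.61 and vehicle A 0.38, so the top of the scale rests mostly on Onecut2.

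Some other genes of the duodenum and jejunum were highest on the same pair of arrays. Of a list of 17 such genes, 15 were measured, and 4 of the 15 (Cck, S100g, Slc40a1 and Slc11a2) had palbociclib 100 B and abemaciclib 36 A as their 2 highest arrays, as 1.39% of all genes did. The list as a whole moved less: 13 of the 15 lay above their own median on palbociclib 100 B and 11 on abemaciclib 36 A, with median distances of 0.23 and 0.13, against 0.12 on palbociclib 30 B. Of all 14217 genes, 6627 lay above their own median on palbociclib 100 B and 7023 on abemaciclib 36 A. Cck, the gene of the hormone cholecystokinin, had signals of 11.21 on palbociclib 100 B and 11.01 on abemaciclib 36 A and of 7.30 to 9.04 on all other arrays. S100g, the intestinal calcium-binding protein calbindin-D9k, had 13.26 and 13.47 there, and 9.48 to 11.73 elsewhere. Slc40a1, the iron exporter ferroportin, had 12.03 and 11.86, with ribociclib 300 B next at 10.99. Slc11a2, the iron importer, had 10.19 and 12.58, with vehicle A next at 8.82. Heph, another gene of iron export, did not share this pattern and was highest on ribociclib 300 C (13.30). Vehicle A, the next highest in Onecut2, was not high in S100g (10.00) or Slc40a1 (9.30).

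Several ileal genes were low on those arrays. Of a list of 12 ileal genes, 10 were measured. All 10 lay below their own median on palbociclib 100 B and 8 on abemaciclib 36 A, as 7584 and 7190 of all 14217 genes did. The median distances of the ileal list were -0.22 and -1.34, and that of palbociclib 100 C was -0.21 as well. Fabp6, the ileal bile acid-binding protein, had signals of 7.81, 8.67 and 5.25 on vehicle A, B and C. With palbociclib it had 7.30, 10.36 and 5.85 at 30 mg/kg/day and 4.16, 4.43 and 5.52 at 100. With abemaciclib it had 4.10, 11.85 and 9.71 at 36 mg/kg/day and 13.56, 13.36 and 12.95 at 120, and with ribociclib 14.24, 10.60 and 13.48. No array had both a high Onecut2 and a high Fabp6: the 5 arrays with Onecut2 above 6 had Fabp6 between 4.10 and 7.81. Low Onecut2 went with any Fabp6 level, from 5.25 on vehicle C to 14.24 on ribociclib 300 A. Fabp6 was thus as low on palbociclib 100 A as on the pair that stood apart. The gut hormone genes Pyy and Nts, which increase toward the ileum, were the 2 of the 10 that had that pair as their lowest arrays, as 0.992% of all genes did. Their signals were 4.76 and 8.68 on abemaciclib 36 A and 4.95 and 9.22 on palbociclib 100 B.

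**Figure D3:**
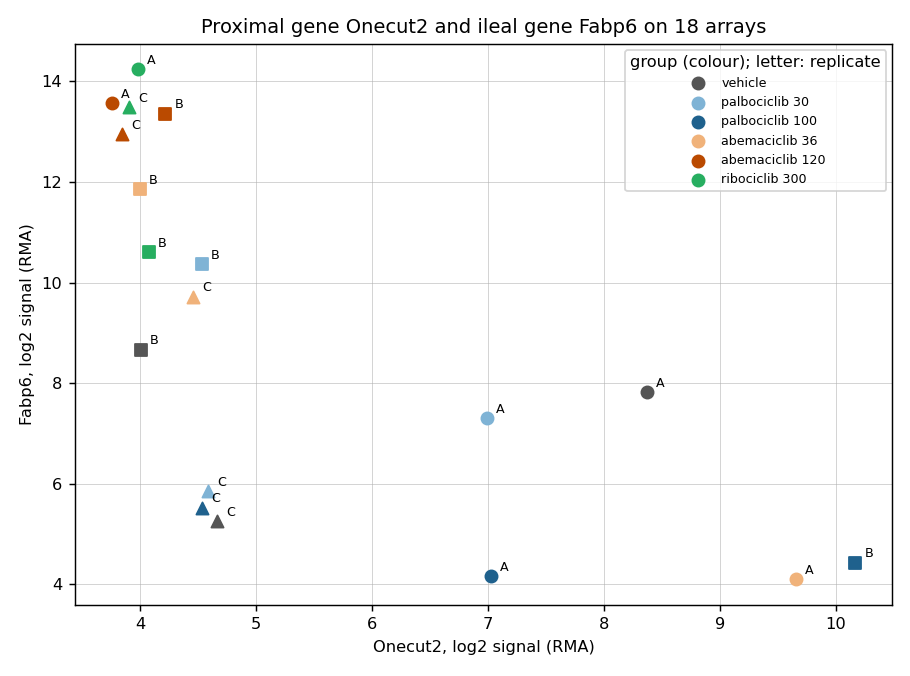
Log2 RMA signal of the proximal gene Onecut2 (x axis) against the ileal gene Fabp6 (y axis) on the 18 arrays, with colour for the group and letter and marker for the replicate. The arrays form an L: those with Onecut2 above 6 have Fabp6 of 7.81 or less, and all 6 arrays of abemaciclib at 120 mg/kg/day and ribociclib have Onecut2 of 4.22 or less and Fabp6 of 10.60 or more.

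Gata4 and Fabp6 can be read side by side in the same way, since Gata4 is known to restrain ileal genes. On ribociclib 300 A and C a low Gata4 (6.89 and 6.99) stood beside a Fabp6 of 14.24 and 13.48, and on ribociclib 300 B a Gata4 of 8.56 stood beside 10.60. On abemaciclib 120 A, Gata4 was 9.22, in the vehicle range, and Fabp6 was 13.56. Slc10a2, the ileal bile acid transporter, was highest on abemaciclib 120 C (9.26), ribociclib 300 A (8.15) and abemaciclib 120 A (8.10), and it was 5.37 to 5.53 with vehicle. On abemaciclib 120 C, Gata4 was 7.70. High Fabp6 and Slc10a2 signals were seen with low and with ordinary Gata4, and the part of Gata4 in them was not tested.

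**Figure D4:**
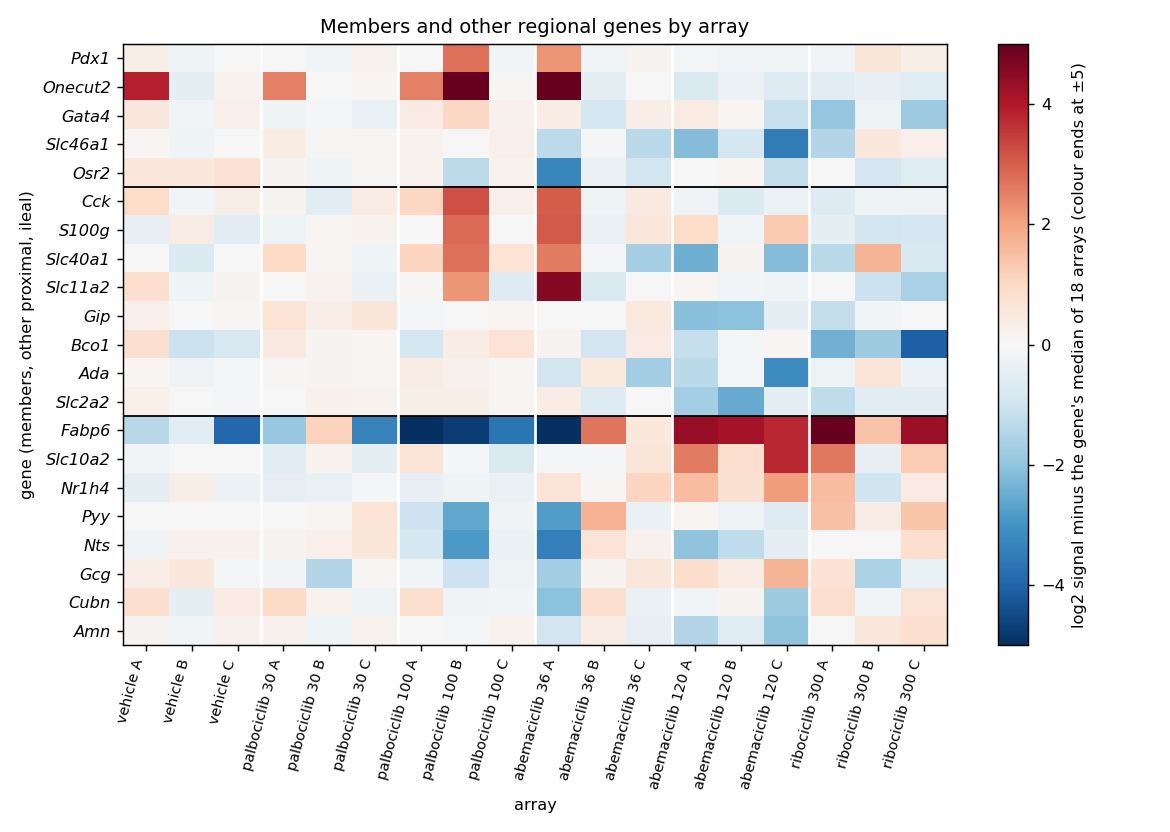
Log2 signal minus the gene's median over the 18 arrays (colour, ending at ±5) for the 5 members and a selection of other duodenal and jejunal genes and of ileal genes (rows) on each array (columns). The selection holds Cck, S100g, Slc40a1 and Slc11a2 and leaves out Heph and other measured genes of both lists. Palbociclib 100 B and abemaciclib 36 A are red for Pdx1, Onecut2, Cck, S100g, Slc40a1 and Slc11a2 and blue for Osr2, Fabp6, Pyy and Nts, whereas the arrays of abemaciclib at 120 mg/kg/day are red for Fabp6 and blue for Slc46a1.

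Against the spread between arrays, Slc46a1 was the member that differed among the 6 groups. limma's F test gave an F of 5.53 with a Benjamini-Hochberg adjusted p of 0.0245 over all 14217 genes. Adjusted p was 0.0634 for Gata4, 0.132 for Osr2, 0.387 for Onecut2 and 0.649 for Pdx1. One member of 5 was thus called, where 22.6% of all genes were. The call for Slc46a1 was lost without abemaciclib 120 A (F of 3.95, adjusted p = 0.0932) or abemaciclib 120 C (F of 3.63, adjusted p = 0.0956), with the RNA quality covariate (F of 3.64, adjusted p = 0.124), and without palbociclib 100 B and abemaciclib 36 A together (F of 4.80, adjusted p = 0.0525). Gata4 was called without abemaciclib 36 B (adjusted p = 0.0294), abemaciclib 120 C (adjusted p = 0.0428) or ribociclib 300 B (adjusted p = 0.0115), and Osr2 without abemaciclib 36 B (adjusted p = 0.0368).

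Ordered by group mean, Slc46a1 was highest with palbociclib at 30 mg/kg/day (11.92 ± 0.17, SD, n = 3 in every group) and at 100 mg/kg/day (11.90 ± 0.14). Vehicle (11.74 ± 0.16) and ribociclib (11.54 ± 1.09) followed, and the arrays of neighbouring groups among these overlapped. Abemaciclib at 36 mg/kg/day (10.86 ± 0.71) and at 120 mg/kg/day (9.58 ± 1.32) came last. For Gata4 the order ran from palbociclib at 100 mg/kg/day (9.38 ± 0.42), vehicle (9.05 ± 0.36), abemaciclib at 36 (8.76 ± 0.72) and at 120 mg/kg/day (8.61 ± 0.81) and palbociclib at 30 mg/kg/day (8.61 ± 0.12) down to ribociclib (7.48 ± 0.94). For Osr2 it ran from vehicle (7.23 ± 0.10) through palbociclib at 30 mg/kg/day (6.61 ± 0.17) and at 100 (6.29 ± 0.86), abemaciclib at 120 mg/kg/day (6.25 ± 0.71) and ribociclib (6.13 ± 0.45) to abemaciclib at 36 mg/kg/day (5.11 ± 1.54). For Onecut2 and Pdx1 the SD within a group exceeded most differences between groups: Onecut2 means ran from 7.24 ± 2.82 with palbociclib at 100 mg/kg/day to 3.94 ± 0.24 with abemaciclib at 120, and Pdx1 means from 4.84 ± 1.64 to 3.89 ± 0.04 for the same groups. The differences from vehicle below share the 3 vehicle arrays.

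With abemaciclib at 120 mg/kg/day, Slc46a1, which carries folate into the enterocyte, fell 4.45-fold. The log2 difference from vehicle was -2.15 (SE 0.55, 95% interval -3.31 to -0.997), with a limma adjusted p of 0.0117, and all 3 arrays lay below all 3 vehicle arrays. One member of 5 was called, where 18% of genes were called and 8.41% were called lower, and 2 members (Slc46a1 and Osr2) had arrays that did not overlap, where 37.3% of genes did. Without abemaciclib 120 C the difference was -1.49 with an adjusted p of 0.0599. Without abemaciclib 120 B, the array whose title gives another dose, it was -2.81 with an adjusted p of 0.00152. Osr2 differed by -0.98 (adjusted p = 0.286), and passed under 1 of the alternatives run, with palbociclib 100 B and abemaciclib 36 A left out together (adjusted p = 0.0432). Onecut2 differed by -1.74 (95% interval -4.82 to 1.33), Gata4 by -0.44 (-1.41 to 0.54) and Pdx1 by -0.12 (-1.43 to 1.19), and none of these passed. The Onecut2 value came from vehicle A and was -0.40 without it.

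Other genes of the upper intestine and of folate use were read beside Slc46a1. Of the 15 other duodenal and jejunal genes, 0 were higher and 2 lower with abemaciclib at 120 mg/kg/day, and the list's median difference was -0.34 against -0.02 for all genes. The lower ones were Gip, the gene of a hormone released after meals (-1.65, adjusted p = 0.00445), and Slc2a2, the glucose transporter GLUT2 (-1.60, adjusted p = 0.00679). Of 10 ileal genes, 3 were higher, Fabp6 (6.05, adjusted p = 0.0123), Slc10a2 (2.44, adjusted p = 0.0182) and the bile acid receptor gene Nr1h4 (1.64, adjusted p = 0.0241). Amn, part of the ileal receptor for vitamin B12, was lower (-1.44, adjusted p = 0.00639). The ileal list did not move as a block, with 5 genes above 0 and 5 below and a median of 0.22.

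Of 20 measured genes of folate transport and folate enzymes, a list that does not hold Slc46a1, 7 were higher and 3 lower, with a median of 0.06. The 3 lower were the reduced folate carrier gene Slc19a1 (-0.84, adjusted p = 0.0231), the formyltetrahydrofolate dehydrogenase gene Aldh1l1 (-1.03, adjusted p = 0.0108) and the folate receptor gene Folr2 (-0.50, adjusted p = 0.0298). The higher included Tyms, the thymidylate synthase gene (2.36, adjusted p = 0.000439), Shmt1, a serine hydroxymethyltransferase gene (2.47, adjusted p = 0.000752), and Atic, of purine synthesis (2.26, adjusted p = 0.000893). The lower genes were thus those of a carrier, an enzyme and a receptor of folate, and the higher ones included enzymes that use folate for nucleotide synthesis. Folr2 was dim on every array, between 5.64 and 6.54.

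Markers of other cells moved in the same comparison, and their part in the Slc46a1 difference was not tested. Of 12 genes of dividing crypt cells, 10 were higher with a median of 2.36, and their summed log2 signal was 12.48 to 12.98 against 10.48 to 11.01 with vehicle. Of 9 immune cell genes, 8 were lower, with a summed signal of 9.65 to 10.99 against 12.93 to 13.22. Of 12 genes of mature enterocytes, the cells that hold the transporter, 2 were lower, with a summed signal of 16.78 to 17.03 against 17.09 to 17.18. In tissue RNA, fewer cells of a type and less RNA per cell cannot be told apart. The 3′ minus 5′ signal of the actin control probe sets, a measure of RNA quality, was 1.05, 0.91 and 0.86 against 0.65, 0.79 and 0.57 with vehicle, and with it as a covariate the Slc46a1 difference was -2.30 (adjusted p = 0.0342).

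With ribociclib at 300 mg/kg/day, Gata4 was the member whose difference from vehicle was largest against its error, at -1.57 (2.97-fold lower, SE 0.46, 95% interval -2.54 to -0.59), and its arrays did not overlap those of vehicle. It did not pass over all genes (limma adjusted p = 0.0694), and without ribociclib 300 B it did (-2.11, adjusted p = 0.0163). No member of 5 was called, where 3.73% of genes were at an adjusted p under 0.05 and 20.2% at an unadjusted p under 0.05, and of the members only Gata4 had an unadjusted p under 0.05. Gata4 and Osr2 had arrays that did not overlap vehicle, where 24.4% of genes did. The other, dimmer Gata4 probe set differed by -0.17 (SE 0.20), with a limma unadjusted p of 0.424. That probe set lay between 4.73 and 5.31 on the vehicle and ribociclib arrays, near background, so its difference cannot tell whether Gata4 changed. Onecut2 differed by -1.69 (95% interval -4.77 to 1.38, and by -0.35 without vehicle A), Osr2 by -1.10 (-2.31 to 0.12), Slc46a1 by -0.20 (-1.36 to 0.96) and Pdx1 by 0.23 (-1.08 to 1.54).

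Partners of Gata4 in the gut epithelium were on a list of 8 measured transcription factors of the whole intestine. With ribociclib, 1 was lower, Cdx2, the homeodomain factor that gives the intestine its identity (-1.34, adjusted p = 0.00919), with arrays of 9.11, 10.08 and 9.46 against 10.86, 10.93 and 10.88 with vehicle. The family members Gata5 (-0.81, adjusted p = 0.338) and Gata6 (0.11, adjusted p = 0.908) did not pass. Of the 3 ribociclib arrays, A was the lowest and B the highest in both Gata4 and Cdx2. Of 15 other duodenal and jejunal genes 1 was lower, Bco1, which cleaves dietary carotene (-2.39, adjusted p = 0.0379), and of 10 ileal genes 0 were called, with 9 above 0 and Fabp6 at 5.53 (adjusted p = 0.0584). Of 9 immune cell genes 4 were lower, with a summed log2 signal of 12.19 to 13.15 against 12.93 to 13.22. Ribociclib 300 A, the array lowest in Gata4, had the highest summed signals of all arrays for 7 stroma genes (11.95, against 9.93 to 10.83 with vehicle) and 9 smooth muscle genes (12.29, against 11.48 to 11.74). Ribociclib 300 C, nearly as low in Gata4, had 10.44 and 11.28. None of these stroma or smooth muscle genes passed with ribociclib, and the part of other cells in the Gata4 difference was not tested.

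With abemaciclib at 36 mg/kg/day, Osr2 had the largest difference of the 5 genes at -2.12 (SE 0.57, 95% interval -3.34 to -0.90), with a limma adjusted p of 0.0691. No member was called, where 2.08% of genes were, and 1 had an unadjusted p under 0.05, where 13.8% of genes did. Osr2 alone had arrays that did not overlap vehicle, where 20.3% of genes did. Without abemaciclib 36 A the Osr2 difference was -1.25 (adjusted p = 0.282), and without abemaciclib 36 B it was -2.70 and passed (adjusted p = 0.0183). Slc46a1 differed by -0.88 (95% interval -2.04 to 0.28), Pdx1 by 0.71 (-0.60 to 2.02), Onecut2 by 0.36 (-2.72 to 3.43) and Gata4 by -0.29 (-1.26 to 0.68). Of 9 immune cell genes 2 were lower and of 7 stroma genes 0 were called, and the summed stroma signal was 9.40 on abemaciclib 36 A, 11.37 on B and 10.45 on C. Their part in the Osr2 difference was not tested. Without abemaciclib 36 A the Onecut2 difference turned to -1.45 and that of Pdx1 to -0.033, Gata4 differed by -0.51 and Slc46a1 by -0.69. Without vehicle A the Onecut2 difference was 1.70.

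With palbociclib, 0 genes of 14217 passed in limma at either dose (0.0%), against 357 (2.51%) at 30 mg/kg/day and 1023 (7.20%) at 100 mg/kg/day with an unadjusted p under 0.05, and 0 members reached an unadjusted p under 0.05. At 30 mg/kg/day Osr2 differed by -0.62 (95% interval -1.84 to 0.60), Gata4 by -0.44 (-1.42 to 0.53), Onecut2 by -0.31 (-3.38 to 2.76), Slc46a1 by 0.18 (-0.97 to 1.34) and Pdx1 by 0.00 (-1.31 to 1.31). At 100 mg/kg/day Onecut2 differed by 1.56 (-1.51 to 4.64), Pdx1 by 0.84 (-0.48 to 2.15), Gata4 by 0.33 (-0.64 to 1.30), Slc46a1 by 0.16 (-0.997 to 1.32) and Osr2 by -0.94 (-2.15 to 0.28). Osr2 was the 1 member whose arrays did not overlap vehicle at each dose, where 11.2% of genes at 30 and 19.0% at 100 mg/kg/day did. Without palbociclib 100 B the differences at 100 mg/kg/day were 0.098 for Onecut2, -0.11 for Pdx1, 0.093 for Gata4, 0.24 for Slc46a1 and -0.44 for Osr2. Without vehicle A those of Onecut2 were 1.04 at 30 and 2.91 at 100 mg/kg/day. These intervals do not show that the members were the same with palbociclib and vehicle.

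**Figure D5:**
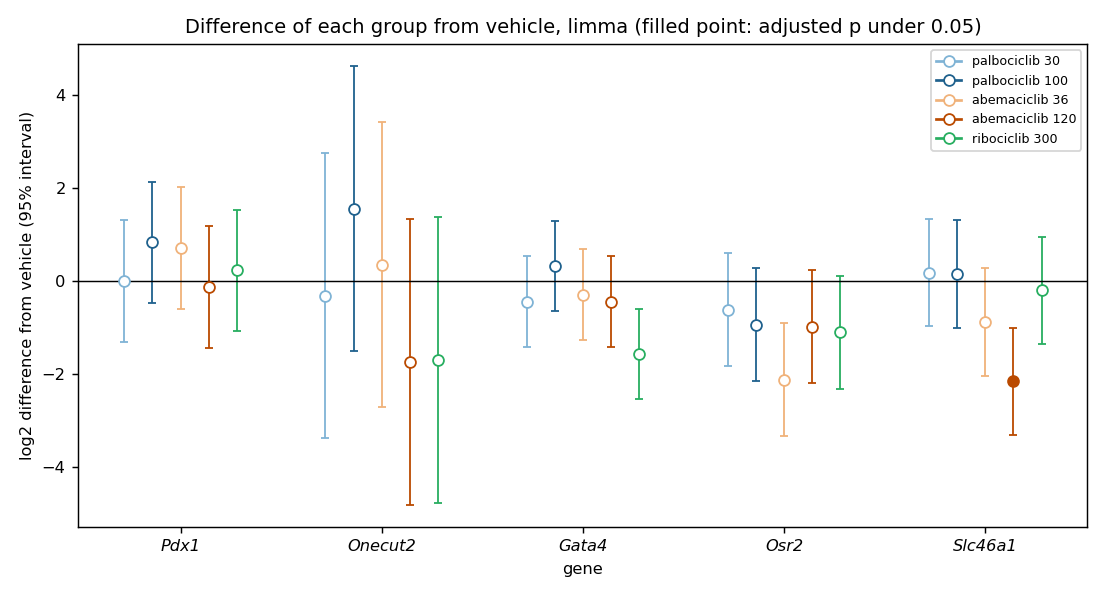
Log2 difference of each treated group from vehicle (points) with its 95% interval from limma for the 5 genes, all sharing the 3 vehicle arrays. The filled point, Slc46a1 with abemaciclib at 120 mg/kg/day at -2.15, has an adjusted p under 0.05, and the Onecut2 intervals are the widest.

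Between doses of a compound, no member passed. For abemaciclib at 120 against 36 mg/kg/day, 7.59% of genes were called and 21.0% had an unadjusted p under 0.05, as 1 member, Slc46a1, did. Slc46a1 differed by -1.28 (SE 0.55, limma adjusted p = 0.188). It passed without abemaciclib 120 B (-1.93, adjusted p = 0.0289). Onecut2 differed by -2.10 (95% interval -5.17 to 0.98), Osr2 by 1.14 (-0.08 to 2.36), Pdx1 by -0.83 (-2.14 to 0.48) and Gata4 by -0.15 (-1.12 to 0.83). Without abemaciclib 36 A they were -0.29 for Onecut2, 0.27 for Osr2, -0.087 for Pdx1, 0.069 for Gata4 and -1.47 for Slc46a1. The arrays of both doses overlapped for each of the 5 genes, while 23.6% of all genes did not overlap. For palbociclib at 100 against 30 mg/kg/day limma called 0 genes (0.0%), and 619 (4.35%) had an unadjusted p under 0.05. Onecut2 differed by 1.87 (-1.20 to 4.95), Pdx1 by 0.83 (-0.48 to 2.14), Gata4 by 0.77 (-0.20 to 1.75), Osr2 by -0.32 (-1.53 to 0.90) and Slc46a1 by -0.02 (-1.18 to 1.13). Without palbociclib 100 B these were 0.41, -0.11, 0.53, 0.18 and 0.053. Gata4 was the 1 member whose arrays did not overlap between the palbociclib doses, where 13.4% of genes did.

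Relatives of the factors had other profiles. Onecut1, the nearest relative of Onecut2, stayed between 3.61 and 3.87 on all 18 arrays, near background. Gata5 was lowest on abemaciclib 36 A (7.65) and ribociclib 300 A (7.77), and Gata6 on abemaciclib 120 C (8.48). Of 11 measured family members and partners, 1 passed with abemaciclib at 120 mg/kg/day, Meis2, but its signal was near background on every array (3.51 to 4.12).

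The genes whose profiles were most like those of the members over 18 arrays are given as a description, with no test. For Pdx1 they were Akp3, an intestinal alkaline phosphatase gene (r 0.968), Ugt2b7 (0.935) and Cck (0.897), and without palbociclib 100 B and abemaciclib 36 A these fell to 0.397, 0.062 and 0.257 over 16 arrays. Pdx1 was near background on all of those 16, so the lower values cannot tell whether the genes ran with it. Akp3 had signals of 9.86 and 9.65 on palbociclib 100 B and abemaciclib 36 A and at most 4.96 elsewhere. For Onecut2 they were Aqp8, a water channel gene listed here with the colon (0.966), Ghrl, the gene of the hormone ghrelin (0.944), and Cck (0.907). Over the 16 arrays these were 0.909, 0.871 and 0.741. Of those 16, Onecut2 was above background only on vehicle A, palbociclib 30 A and palbociclib 100 A. Its r values over the 16 arrays therefore rest on those arrays against the rest. Aqp8 was 8.72 on vehicle A and Ghrl 7.79, so vehicle A, high in Onecut2, was also the next highest in both. At the other end, Tmigd1 ran against Onecut2 (-0.932, and -0.813 over the 16 arrays), with 5.69 and 5.75 on palbociclib 100 B and abemaciclib 36 A and 12.72 to 12.81 with abemaciclib at 120 mg/kg/day.

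Slc46a1 had many more genes of like profile than the other members: 988 genes had an r above 0.8 in size, against 32 for Onecut2, 30 for Gata4, 19 for Pdx1 and 9 for Osr2. The most like were Acp2, Grb7 and Ifngr2 (all 0.942) and the most opposed Gtpbp4 (-0.959) and Wdr3 (-0.942), both of ribosome assembly. These values moved by little without palbociclib 100 B and abemaciclib 36 A, to 0.942, 0.954, 0.950, -0.958 and -0.951. Wdr3 was 7.64, 6.71 and 7.99 with abemaciclib at 120 mg/kg/day and 5.31, 6.03 and 5.42 with vehicle. These 988 genes are 6.95% of all genes, against 0.225% for Onecut2.

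Gata4 was most like Camta2 (0.909), Sec31a (0.904) and Hectd3 (0.90) and most opposed to Klf9 (-0.875) and Hist4h4 (-0.851), with 0.897, 0.882, 0.878, -0.863 and -0.827 over the 16 arrays. Klf9, a zinc-finger factor, was highest on ribociclib 300 C (9.67) and A (9.15), where Gata4 was lowest. Osr2 was most like Lpar1, a lysophosphatidic acid receptor gene (0.877, and 0.772 over the 16 arrays), Tmem238l (0.827 and 0.511) and Pde9a (0.819 and 0.587), each lowest on abemaciclib 36 A, and most opposed to Eaf1 (-0.878 and -0.739) and Ces1d (-0.833 and -0.422). Of the members, Pdx1 and Onecut2 shared genes among these neighbours (Cck, and Tmigd1 as an opposed one). The mean profile of the 5 genes was most like Arhgef18 (0.898), Kiaa1671 (0.879), Gmip (0.878), Slc43a2 (0.871) and Slc26a6 (0.871), and most opposed to Slc10a7 (-0.872), Wdr45b (-0.832), Bzw1 (-0.816), Gtf2f2 (-0.815) and Pafah1b2 (-0.812), and over the 16 arrays these lay between 0.842 and 0.958 and between -0.88 and -0.796.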

How the data were processed

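RNA from jejunal mucosal scrapings was measured on 18 Affymetrix arrays. The deposited values are log2 signals per probe set, from 2.86 to 14.34. Per the submitters' processing notes they come from RMA, with Transcriptome Analysis Console and Affymetrix Expression Console also named and no version given. RMA usually makes the signal distributions of arrays equal, which hides a change in total RNA. Precision is limited by the number of arrays. No detection calls were used here.

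Of 31099 probe sets, 57 were controls, 20826 had 1 symbol, 436 several and 9780 none in the platform annotation. Each gene was represented by its probe set of highest mean. A linear model with a mean for each group was fitted to the 18 arrays and 14217 genes with limma 3.58.1 in R 4.3.3 (eBayes with trend, 12 residual degrees of freedom), with two-sided p-values adjusted by Benjamini-Hochberg over all genes and a threshold of 0.05. Intervals are 95% intervals from that model. The step was tested on simulated data. Tables and motif searches used Python 3.11.15 with pandas 2.3.3. Promoters came from RefSeq (GRCr8).

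The members and lists were chosen with earlier results of these data known. Genes named are the members, the 3 most like and 2 most opposed to each (5 and 5 for their mean), up to 3 per list and direction by smallest p, and any ileal gene. S100g, Slc40a1, Slc11a2, Heph, Onecut1, Gata5, Gata6, Cela1, Ctrc and Pnliprp2 were named after their values were seen. The near-background level of 5.49 was also set after seeing the data. Alternatives were quantile re-normalization, median centring, leaving out genes below the 30th percentile, the mean of a gene's probe sets, every probe set, no trend, only the groups compared, the replicate letter as a block, an RNA quality covariate (3′ minus 5′ actin) and leaving out arrays; leaving out palbociclib 100 B and abemaciclib 36 A together was chosen after seeing the data.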

Additional observations from a re-analysis of the deposited data

How the results depend on the processing

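The members' tests gave 687 values under the alternatives: 644 kept their direction and their side of the threshold, 30 turned direction, 8 newly passed and 5 no longer passed. Those of the F test have no direction, so for them only the side of the threshold could change. Pdx1 with palbociclib at 30 mg/kg/day turned to -0.04 after quantile re-normalization. Leaving out both palbociclib 100 B and abemaciclib 36 A gave Pdx1 -0.108 (palbociclib 100), -0.033 (abemaciclib 36) and -0.109 (palbociclib 100 against 30), Onecut2 -1.45 (abemaciclib 36), Slc46a1 0.053 and Osr2 0.181 (palbociclib 100 against 30) and Gata4 0.069 (abemaciclib 120 against 36). Leaving out 1 array at a time gave ranges across 0 as follows. Onecut2 ran from -1.15 to 1.04 with palbociclib 30 (highest without vehicle A) and from -1.45 to 1.70 with abemaciclib 36 (lowest without abemaciclib 36 A, highest without vehicle A). Pdx1 ran from -0.131 to 0.129 with palbociclib 30, -0.108 to 1.34 with palbociclib 100 (lowest without palbociclib 100 B), -0.033 to 1.15 with abemaciclib 36 (lowest without abemaciclib 36 A), -0.253 to 0.007 with abemaciclib 120 and -0.109 to 1.33 for palbociclib 100 against 30. Gata4 ran from -0.507 to 0.126 with abemaciclib 36, -0.744 to 0.018 with abemaciclib 120 and -0.564 to 0.307 for abemaciclib 120 against 36. Slc46a1 ran from -0.581 to 0.426 with ribociclib (highest without ribociclib 300 A) and -0.08 to 0.075 for palbociclib 100 against 30, where Osr2 ran from -0.573 to 0.181. The causes were not tested.

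Counts of called genes moved more. Palbociclib 100 against 30 gave 1 gene with every probe set or with only the groups compared. Only the groups compared gave 29 genes for ribociclib and 309 for abemaciclib 120 against 36. The RNA quality covariate gave 1596 genes for abemaciclib 120, 436 for abemaciclib 120 against 36, and 1246 genes and 0 members in the F test. Without palbociclib 100 B and abemaciclib 36 A, abemaciclib 36 had 29 genes, abemaciclib 120 had 2 members, abemaciclib 120 against 36 had 388 genes and the F test 0 members. Leaving out 1 array at a time gave 46 to 531 genes for abemaciclib 36 (lowest without its A, highest without its B, and moved by over 1.5 times without any 1 of the 6 arrays), 1349 to 2497 for abemaciclib 120 (lowest without its A, and 1473 without vehicle C), 120 to 1317 for ribociclib (lowest without vehicle C, highest without ribociclib A, and moved by over 1.5 times also without vehicle A or B or ribociclib C), 397 to 1344 for abemaciclib 120 against 36 (lowest without abemaciclib 120 A, then abemaciclib 36 A and B), 1580 to 4138 in the F test (lowest without abemaciclib 120 A) and 0 to 1 for palbociclib 100 (1 without vehicle A or its own A). It gave 0 to 3 members in the F test (0 without abemaciclib 120 A, 2 without ribociclib B, 3 without abemaciclib 36 B) and 0 to 1 for abemaciclib 36, abemaciclib 120, ribociclib and abemaciclib 120 against 36. Without abemaciclib 120 C the F test lost Slc46a1 and gained Gata4. Pdx1 lies below the 30th percentile and was left out by that filter.

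The replicate letter as a block changed no member's call: Slc46a1 with abemaciclib 120 had an adjusted p of 0.0104, and 2717 genes were called there, 400 for abemaciclib 36 and 660 for ribociclib. Of 45 same-letter pairs, 19 had a correlation of deviations over 0.1 (-0.311 to 0.593, median 0.052, against a median of -0.041 for pairs of different letters). Whether the letters pair the samples is not known.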
